A study of Mus musculus with 23 samples.

Results

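Tumors grown from LL2 cells were compared directly with tumors grown from Pan02 cells, 3 tumors against 3, which are 6 of the 23 samples of the series. Both are syngeneic models, in which a mouse cancer line grows in mice of its own strain with an intact immune system. LL2 (cell line label LL/2) is a lung carcinoma line and Pan02 a pancreatic ductal carcinoma line, and both were cultured in DMEM. For either model, 500000 cells were placed under the skin of the flank of adult female C57BL/6 mice, with no other treatment, and a fragment of the whole tumor was taken at endpoint, after tumors with ulcers had been excluded. Each model rests on 1 cell line, so the comparison is between 2 lines and not between 2 organs of origin. The sample titles of the Pan02 tumors read Pan01, while their cell line label reads Pan02. The labels do not say whether the 3 tumors of a model came from separate mice, so p-values measure only the spread between these samples.

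A whole tumor holds cancer cells together with the host's myeloid cells, fibroblasts and vessels. Neutrophils are drawn in by chemokines that bind CXCR2 and are made and matured under G-CSF, monocytes are drawn in by CCL2 and its relatives, and macrophages live on CSF-1. Macrophages exposed to interleukin-4 or interleukin-13 express a set of genes called alternative activation or M2, among them chitinase-like proteins and resistin-like alpha, whereas bacterial products and interferon-gamma induce the M1 set with inducible nitric oxide synthase. Fibroblasts lay down collagens and matrix glycoproteins, and in tumors many take on a contractile, smooth-muscle-like form.

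Of 14718 genes tested, 1074 (7.3%) were higher in LL2 tumors and 2072 (14.1%) were higher in Pan02 tumors, where a call needed an adjusted p under 0.05 and at least a 1 log2 unit difference. All p-values are from edgeR's quasi-likelihood test with Benjamini-Hochberg adjustment, and log2 fold changes are LL2 minus Pan02, so that positive values are higher in LL2. Levels are read counts scaled to the library (CPM), and 1 transcript stands for each gene. Either way, 21.4% of genes were called, and the 3 tumors of one model lay apart from the 3 of the other for 50.7% of genes, with LL2 on top for 24.8% and Pan02 on top for 25.9%. The genes were read through lists of markers and pathways, and a list's share of called genes is set against the shares over all genes. The median log2 fold change over all genes was -0.064, and it was 0.14 higher when libraries were scaled by their total counts. Total counts ran from 14757971 to 21948468 per tumor. Because the RNA is from whole tissue, fewer cells of a type and less RNA per cell cannot be told apart. RNA of cancer cells and RNA of host cells cannot be told apart either, also for genes on the stromal lists.

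Across the myeloid marker and program lists, 324 genes were tested, of which 7.41% were higher in LL2 and 16.7% in Pan02, close to the shares over all genes. Across the stromal lists with fibroblast and pericyte markers, 321 genes were tested, of which 6.85% were higher in LL2 and 45.8% in Pan02. Single myeloid lists differed in their counts, while most stromal lists leaned to Pan02, as the bar chart by list shows. Most myeloid lists held few calls on either side. A count near the shares over all genes is not a result about its list. Many myeloid counts rested on single tumors, above all on Pan02 tumor 1.

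**Figure D1:**
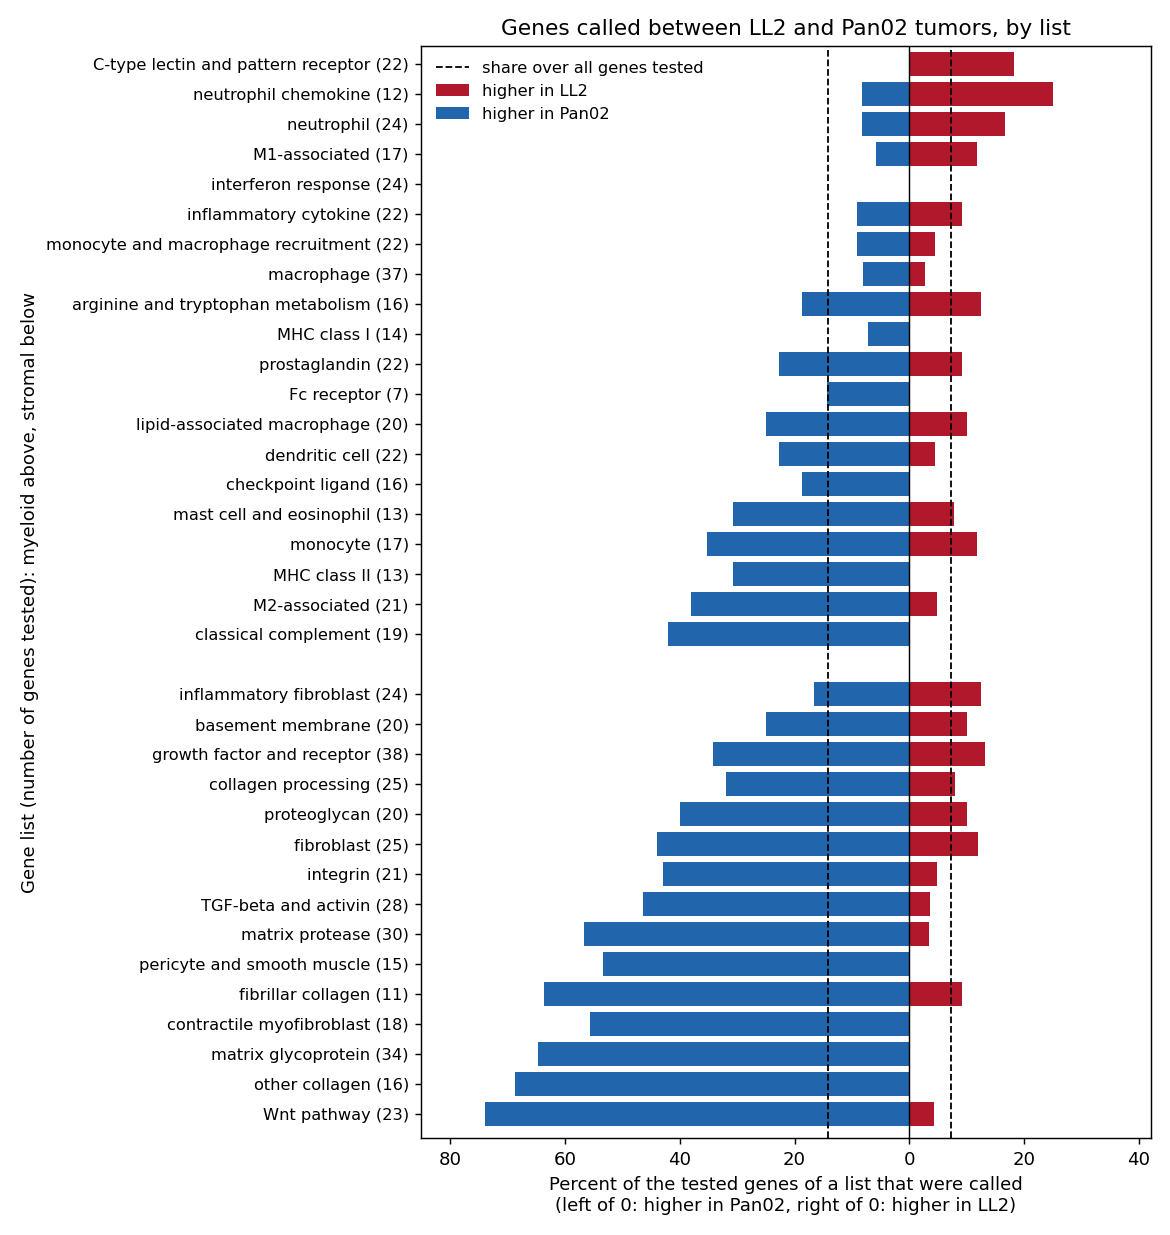
Percent of the tested genes of each myeloid list (upper block) and stromal list (lower block) that were called higher in LL2 (red, right of 0) or higher in Pan02 (blue, left of 0), with the number of tested genes in parentheses and dashed lines at the shares over all genes (7.3% and 14.1%). Many lists pass the LL2 line, those of neutrophil chemokines (3 of 12 genes), C-type lectins (4 of 22) and neutrophil markers (4 of 24) by most among the myeloid lists, and the Wnt, collagen and matrix glycoprotein lists reach farthest toward Pan02.

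Several chemokine and growth factor genes that recruit neutrophils and monocytes were higher in LL2 tumors. The promoter of *Cxcl1* is printed because this CXCR2 ligand differed most, that of its neighbour *Cxcl2* because it shares the motif without being called, and that of *Ccl17* because it is a chemokine gene called on the Pan02 side. They are the 250 bases before the start site in RefSeq (GRCm38.p6, the build named mm10), at chr5:90890995-90891244, chr5:90903649-90903898 and chr8:94810203-94810452, each on the + strand, and these start sites are also those of the transcripts in the count table. Capitals mark GGGAA followed after 1 free base by TTCC, a form of the site bound by NF-kB, or TTC followed after 4 free bases by GAA, a form of the site bound by STAT factors, searched on both strands.
Cxcl1: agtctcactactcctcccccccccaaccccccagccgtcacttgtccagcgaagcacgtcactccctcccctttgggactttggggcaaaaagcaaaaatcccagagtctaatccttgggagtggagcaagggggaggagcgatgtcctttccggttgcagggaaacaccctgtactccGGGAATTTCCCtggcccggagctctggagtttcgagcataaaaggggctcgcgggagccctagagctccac
Cxcl2: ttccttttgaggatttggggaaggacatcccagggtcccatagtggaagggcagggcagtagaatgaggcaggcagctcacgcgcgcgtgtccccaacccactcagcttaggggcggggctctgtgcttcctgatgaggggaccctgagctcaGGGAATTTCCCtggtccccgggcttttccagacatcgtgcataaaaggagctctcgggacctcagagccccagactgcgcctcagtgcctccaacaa
Ccl17: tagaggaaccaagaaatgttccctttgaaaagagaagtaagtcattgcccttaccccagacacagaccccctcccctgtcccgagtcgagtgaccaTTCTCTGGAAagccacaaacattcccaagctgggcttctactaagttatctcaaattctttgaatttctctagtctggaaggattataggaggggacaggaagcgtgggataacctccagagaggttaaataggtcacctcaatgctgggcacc
In *Cxcl1* the capitals run from -71 to -61 and in *Cxcl2* from -97 to -87, counted from the start site, and each run holds the motif once on either strand, overlapping. In *Ccl17* they run from -154 to -145. Among 32851 mouse promoter windows of this length, 0.283% held the first motif and 5.85% the second. Of the 12 genes of the neutrophil chemokine list with a window, those of *Cxcl1*, *Cxcl2* and *Cxcl3* held the first motif. Of the 14 such genes of the M2 list, those of *Ccl17*, *Retnla*, *Pdcd1lg2* and *Clec7a* held the second, and that of *Chil4* did not. These are matches of letters, and binding was not measured.

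*Cxcl1*, which encodes the CXCR2 ligand also known as KC, was at 40.9, 514 and 71.7 CPM in the 3 LL2 tumors and 1.32, 4.64 and 1.07 CPM in the 3 Pan02 tumors. The lowest LL2 tumor was thus above the highest Pan02 tumor, although LL2 tumor 2 alone was far above its own group. Its log2 fold change was 6.51 (SE 1.24, adjusted p = 0.00786), the highest on the list. *Ppbp*, which encodes a further CXCR2 ligand carried by platelets, was at 29.5, 26.9 and 2.39 CPM against 0.376, 0.605 and 1.07 CPM, apart in all tumors, with a log2 fold change of 4.84 (SE 0.98, adjusted p = 0.00975). *Csf3*, the gene of G-CSF, was at 3.38, 16.9 and 9.75 CPM against 0.188, 0.134 and 0.0597 CPM, the latter from only 4, 2 and 1 counts. Its fitted log2 fold change, which depends on the prior count at such low counts, was 6.19 (SE 0.78, adjusted p = 0.00161).

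Not every ligand of this receptor followed. *Cxcl2* was at 16.1, 86 and 21.1 CPM in LL2 and 8.58, 16.7 and 2.93 CPM in Pan02 tumors and did not pass the test (2.13, SE 0.82, adjusted p = 0.0843), although it did by DESeq2 (2.18, adjusted p = 0.0068) and with all 15 tumors in the fit (2.17, 0.043). *Cxcl5* was at 19.5, 45.6 and 26.4 CPM against 71.2, 37.6 and 23.4 CPM and also overlapped (-0.53, adjusted p = 0.407). The receptor genes overlapped, with *Cxcr2* at 5.11, 9.52 and 6.58 CPM against 8.25, 6.32 and 2.21 CPM and *Csf3r* at 16.7, 35.5 and 33.5 CPM against 32.4, 35 and 20.1 CPM. Among the 12 tested genes of the list, 3 were higher in LL2 and 1, the interleukin-17 receptor subunit *Il17rc* (-1.61, adjusted p = 0.00631), was higher in Pan02, with a median of 0.43. The LL2 count was 5 by DESeq2, which was run without the filter on low counts, and with all 15 tumors of the series in the fit, and the Pan02 count 2 by DESeq2 and without LL2 tumor 1, LL2 tumor 2, LL2 tumor 3 or Pan02 tumor 3.

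Of 24 markers of neutrophils themselves, 4 were higher in LL2 and 2 in Pan02, with a median of 0.92. The LL2 count depended on the test, and was 12 by DESeq2 and 10 with all 15 tumors in the fit, as well as 7 without LL2 tumor 1 and 2 without LL2 tumor 2. The Pan02 count was 1 without LL2 tumor 1, LL2 tumor 2 or Pan02 tumor 2, and under DESeq2 size factors or total-count scaling. *S100a8*, a chain of calprotectin and a defining marker, was at 11.6, 29.8 and 6.87 CPM in LL2 and 6.74, 4.24 and 1.55 CPM in Pan02 tumors, with each LL2 tumor above each Pan02 tumor by a narrow margin, and did not pass the test (1.94, SE 0.69, adjusted p = 0.067). Its partner *S100a9* was at 20.6, 57 and 12.2 CPM against 8.72, 5.11 and 1.67 CPM and was called higher in LL2 (2.52, SE 0.75, adjusted p = 0.0372). That call was lost without LL2 tumor 1, LL2 tumor 2, Pan02 tumor 2 or Pan02 tumor 3, at log2 fold changes of 2.74, 1.67, 2.51 and 2.14 and adjusted p-values of 0.058, 0.13, 0.1 and 0.072, whereas *S100a8* passed without LL2 tumor 3 or Pan02 tumor 1, at 2.31 and 2.53 (adjusted p = 0.047 and 0.043). It also passed by DESeq2 (1.98, adjusted p = 0.0074) and with all 15 tumors in the fit (1.97, 0.017). *Ly6g*, a surface marker of neutrophils, was at most 0.672 CPM in any tumor and was not tested.

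A firmer call on the marker list, kept without any single tumor, was *Slfn4*, a schlafen gene of myeloid cells, at 17.1, 60.2 and 48.9 CPM in LL2 and 3.85, 2.92 and 2.63 CPM in Pan02 tumors (3.73, SE 0.49, adjusted p = 0.00186). Of 22 genes of C-type lectins and pattern receptors, 4 were higher in LL2 and 18 were not called, with a median of -0.05. The LL2 count was 1 without LL2 tumor 2, and in Pan02 3 were higher without Pan02 tumor 1 and 2 by DESeq2 or with all 15 tumors in the fit. Among the 4, *Clec4d* was at 29.5, 43.9 and 21.4 CPM against 8.98, 11.4 and 13.9 CPM (1.47, SE 0.30, adjusted p = 0.0107), and *Clec4e*, which encodes Mincle, at 9.4, 22.3 and 15.3 CPM against 2.56, 5.38 and 5.38 CPM (1.83, SE 0.42, adjusted p = 0.0159), with *Clec4e* passing no longer without LL2 tumor 2 (1.49, adjusted p = 0.058). *Padi4*, whose enzyme modifies histones when neutrophils release chromatin, was higher in Pan02 instead, at 53.5, 71 and 106 CPM against 12.1, 23.5 and 11.2 CPM in LL2 (-2.30, SE 0.38, adjusted p = 0.0043). Summed over the list and set against the summed macrophage markers of the same tumor, neutrophil markers stood at log2 ratios of -5.21, -3.97 and -5.03 in LL2 and -5.28, -6.14 and -6.54 in Pan02 tumors. The means were -4.74 ± 0.67 and -5.98 ± 0.65 (SD, n = 3), a difference of 1.25, with the lowest LL2 tumor just above the highest Pan02 tumor. The neutrophil sums alone overlapped, at 238.8, 583.1 and 341.0 CPM in LL2 and 329.2, 286.4 and 345.5 CPM in Pan02 tumors, whereas the macrophage sums, which include *Apoe* and *Spp1*, were apart at 8799, 9037 and 11072 against 12700, 20070 and 32088 CPM. Both of these genes, described below, were called higher in Pan02. Only with them counted did Pan02 tumor 1 lie above the LL2 sums, and the order of the ratios rests on them too. In FAP+ cells sorted from CD45- cells, described below, the macrophage list summed to 3220 and 3180 RPKM in Pan02 and 1350 and 1500 RPKM in LL2 libraries. The macrophage sums and the ratios thus cannot be assigned to macrophages alone. The neutrophil sums include *Padi4*, which at 53.5, 71 and 106 CPM was above *S100a8* and *S100a9* in each Pan02 tumor. The sums and ratios therefore cannot be read as a level of neutrophils. With 3 tumors against 3 an exact permutation test cannot give a p below 0.1, and none was run.

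Among the CCR2 ligand genes, *Ccl2* was called. This main ligand of the receptor was at 199, 339.8 and 208 CPM in LL2 and 6.86, 44.6 and 28.7 CPM in Pan02 tumors, and the lowest LL2 tumor was far above the highest Pan02 tumor (3.22, SE 0.64, adjusted p = 0.00906). *Ccl7*, a neighbouring CCR2 ligand, was at 85.8, 109.6 and 81.1 CPM against 8.44, 63 and 54.4 CPM and did not pass (1.14, adjusted p = 0.202). *Ccl8* was at 53.7, 171 and 165 CPM against 65, 303 and 1164 CPM, with Pan02 tumor 3 far above the rest (-1.98, adjusted p = 0.154). It passed on the Pan02 side without Pan02 tumor 1 (-2.43, adjusted p = 0.035) and with all 15 tumors in the fit (-1.90, 0.044). The receptor *Ccr2* was at 33.5, 43.5 and 74.7 CPM against 12, 60.2 and 49.6 CPM, with overlapping groups.

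Neither *Csf1* nor its receptor gene was called. *Csf1* was at 260.0, 274 and 288 CPM in LL2 and 114, 146 and 203 CPM in Pan02 tumors, apart in all tumors but under the fold threshold (0.83, SE 0.22, adjusted p = 0.0258), and it crossed that threshold without Pan02 tumor 3 (1.12, adjusted p = 0.0053). *Csf1r*, the macrophage marker whose exons share 17.9% of their bases with another gene, was at 155, 171 and 269 CPM against 165, 449 and 569 CPM (-0.99, SE 0.45, adjusted p = 0.13). It passed on the Pan02 side without Pan02 tumor 1 (-1.29, adjusted p = 0.017). Of the 22 recruitment genes tested, 1 was higher in LL2 and 2 in Pan02, under the shares over all genes (7.3% and 14.1%), with a median of -0.43. In Pan02, 7 were higher without Pan02 tumor 1 and 4 with all 15 tumors in the fit. The 2 were fractalkine, *Cx3cl1* (-1.14, adjusted p = 0.0291), and its receptor *Cx3cr1*, which marks patrolling monocytes and tissue macrophages (-2.25, adjusted p = 0.00583). The *Cx3cl1* call was lost without LL2 tumor 1, LL2 tumor 2, Pan02 tumor 1 or Pan02 tumor 2, at -1.12, -0.95, -1.08 and -0.86 (adjusted p = 0.084, 0.096, 0.064 and 0.087), and under total-count scaling, where it fell short of the fold threshold (adjusted p = 0.043).

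**Figure D2:**
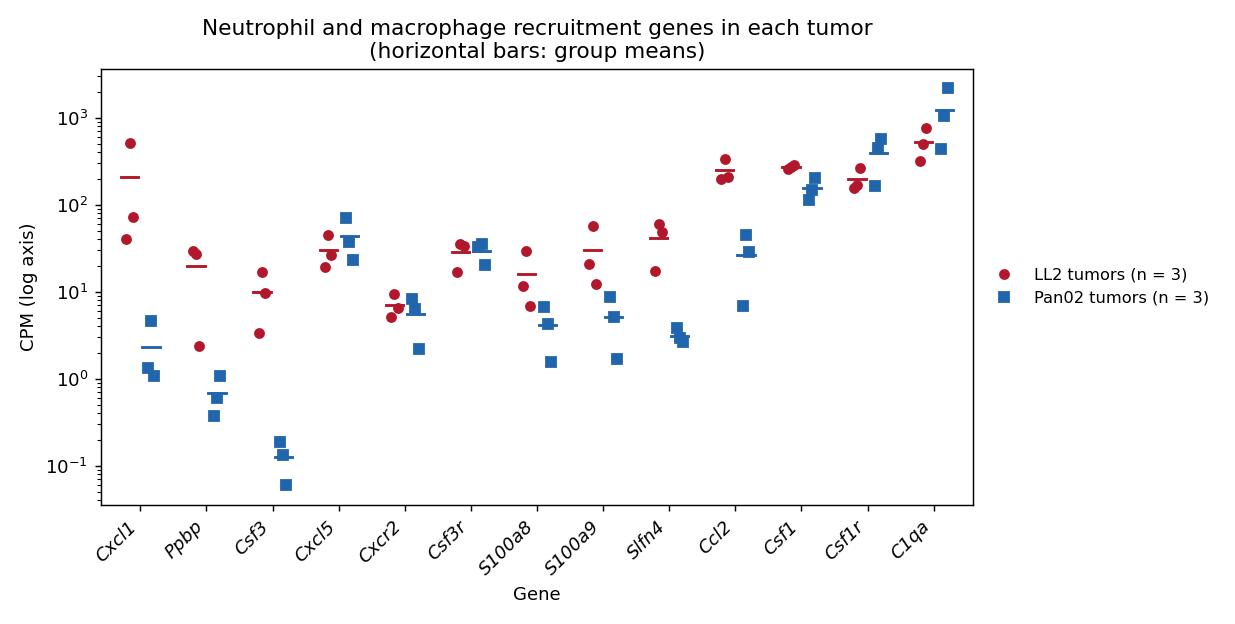
CPM of 13 neutrophil and macrophage recruitment genes in each LL2 tumor (red circles) and each Pan02 tumor (blue squares) on a log axis, with bars at the group means (n = 3). *Cxcl1*, *Ppbp*, *Csf3*, *Slfn4* and *Ccl2* are apart with LL2 on top, whereas *Cxcl5*, *Cxcr2*, *Csf3r*, *Csf1r* and *C1qa* overlap.

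Monocyte and macrophage markers were not uniformly higher in either model. Of 17 monocyte genes, 2 were higher in LL2 and 6 in Pan02, with a median of -1.20. The LL2 pair were *Vcan*, the gene of the matrix proteoglycan versican that classical monocytes also make, at 198 against 28.2 CPM on average (2.81, SE 0.45, adjusted p = 0.00406), and *Ms4a4c*, at 21.1 against 2.41 CPM (3.13). The Pan02 genes included *Fn1*, a matrix gene described below, and *Thbs1*, which is also on a stromal list. *Vcan*, *Fn1* and *Thbs1* had the same order in FAP+ cells sorted as fibroblasts from CD45- cells, described below. Their log2 ratios there, LL2 over Pan02, were 4.01, -0.70 and -3.03, so these calls cannot be assigned to monocytes. *Spn*, the gene of the leukocyte sialomucin CD43, averaged 239 against 13.3 CPM (-4.16, SE 0.59, adjusted p = 0.00249), and *Ear2*, an eosinophil-associated ribonuclease gene, 29.8 against 1.17 CPM (-4.65). The *Ms4a4c* call was lost without LL2 tumor 2, LL2 tumor 3, Pan02 tumor 1 or Pan02 tumor 3 (adjusted p = 0.056, 0.053, 0.051 and 0.062), and the *Ear2* call without LL2 tumor 1 or LL2 tumor 2 (0.06 and 0.074).

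Of 37 macrophage genes, 1 was higher in LL2, 3 were higher in Pan02 and 33 were not called, with a median of -0.62. Without Pan02 tumor 1, 14 were higher in Pan02, and the count was 2 to 4 without any other single tumor. The LL2 count was 0 without LL2 tumor 2 and 2 without LL2 tumor 1 or Pan02 tumor 3. The complement gene *C1qa* was at 318, 497 and 757 CPM in LL2 and 435, 1049.6 and 2184 CPM in Pan02 tumors (-1.22, SE 0.58, adjusted p = 0.148), and it passed without Pan02 tumor 1 (-1.55, adjusted p = 0.04). F4/80, encoded by *Adgre1*, was at 89.5, 95.9 and 148 CPM against 47.8, 171 and 166 CPM, with overlapping groups. The mannose receptor gene *Mrc1* was at 226, 203 and 219.9 CPM against 59.4, 256 and 618 CPM, a narrow range in LL2 and a wide one in Pan02 that spanned it. The LL2 gene was *Marco*, a scavenger receptor gene (4.05), named here after its values were seen, and its call was lost without LL2 tumor 2 (3.79, adjusted p = 0.057). On the Pan02 side, *Apoe*, the gene of the lipid carrier apolipoprotein E, was at 3247, 6523 and 10553 CPM in Pan02 and 749, 836 and 1514 CPM in LL2 tumors (-2.71, SE 0.49, adjusted p = 0.00653). *Spp1*, the gene of osteopontin, was at 3142, 2244 and 3018 CPM against 1057, 557 and 543 CPM (-1.96, SE 0.32, adjusted p = 0.00405), and 18.8% of its exon bases are shared with another gene. It had the same order in the FAP+ cells sorted from CD45- cells (log2 ratio -1.64, LL2 over Pan02). Its call thus cannot be assigned to macrophages.

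Lipid-handling genes of foamy macrophages split. Of 20 tested, 2 were higher in LL2 and 5 in Pan02, with a median of -0.60, and the Pan02 count was 8 without Pan02 tumor 1 and 3 without Pan02 tumor 3. The LL2 count was 0 without LL2 tumor 1 or Pan02 tumor 2 and 1 without LL2 tumor 2, LL2 tumor 3 or Pan02 tumor 1. In the FAP+ cells sorted from CD45- cells, the list summed to 4200 and 4190 RPKM in Pan02 and 2640 and 2970 RPKM in LL2 libraries, so it does not read macrophages alone. Beside *Apoe* and *Spp1*, *Lipa*, which encodes the lysosomal acid lipase, was higher in Pan02 (206 against 85.3 CPM, -1.27, adjusted p = 0.00591). The LL2 calls were the fatty acid receptor gene *Cd36* (33 against 15.2 CPM, 1.12) and the cathepsin gene *Ctsl* (1729 against 658 CPM, 1.40), whose exons overlap another gene over 28.2% of their bases. The *Cd36* call was lost without LL2 tumor 1, at 0.83 and under the fold threshold (adjusted p = 0.035), and without Pan02 tumor 2 (1.10, 0.054), and the *Ctsl* call without any 1 of 5 tumors, all but Pan02 tumor 3, with adjusted p-values of 0.073 to 0.13. *Trem2*, the lipid-sensing receptor of this state, was at 44.4, 53.2 and 47 CPM in LL2 and 45.6, 84.4 and 223 CPM in Pan02 tumors (-1.29, adjusted p = 0.101), and passed without Pan02 tumor 1 (-1.61, adjusted p = 0.02), by DESeq2 (-1.23, 0.035) and with all 15 tumors in the fit (-1.22, 0.038).

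Genes of alternative activation leaned to Pan02, though not in every tumor. Of 21 tested, 8 were higher in Pan02 and 1 in LL2, with a median of -2.0, and 20 of 21 had a negative log2 fold change. The Pan02 count rested on single tumors. It was 15, 4 and 3 without Pan02 tumor 1, 2 and 3 in turn, and 2, 1 and 3 without LL2 tumor 1, 2 and 3. *Chil4*, a chitinase-like gene, was at 76.3, 912 and 2376 CPM in Pan02 tumors and 0.683, 0.553 and 0.837 CPM in LL2 tumors, so that even the lowest Pan02 tumor was far above all LL2 tumors (-10.62, SE 1.47, adjusted p = 0.00228). Its close relative *Chil3*, known as Ym1, was at 4.3, 25.2 and 2055 CPM against 3.71, 9.97 and 6.58 CPM and did not pass (-6.67, SE 2.22, adjusted p = 0.0548). *Chil3* and *Chil4* are near-identical, so reads could have been split between them. *Chil3* was high in Pan02 tumor 3 alone. It passed without Pan02 tumor 1 (-7.19, adjusted p = 0.018) or Pan02 tumor 2 (-7.24, 0.05), with no filter on low counts (-6.66, 0.046) and with all 15 tumors in the fit (-6.60, 0.0042).

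*Retnla*, the gene of resistin-like alpha, was at 5.15, 205 and 1198 CPM in Pan02 tumors against 8.07, 5.4 and 7.38 CPM in LL2 tumors. Pan02 tumor 1 thus lay at the LL2 level, while the other two lay far above (-6.08, SE 1.67, adjusted p = 0.029). The *Retnla* call was lost without LL2 tumor 1, LL2 tumor 2, LL2 tumor 3 or Pan02 tumor 3, at -6.19, -5.91, -6.11 and -3.84 (adjusted p = 0.085, 0.11, 0.08 and 0.065). *Ccl17*, a chemokine gene of dendritic cells and M2 macrophages that attracts CCR4-bearing T cells, was at 1.57, 22 and 33.1 CPM against 0.391, 0.201 and 0.635 CPM, again lowest in Pan02 tumor 1 but apart (-5.52, SE 1.14, adjusted p = 0.0106), with an adjusted p of 0.052 without LL2 tumor 2 (-5.16). *Egr2*, a transcription factor gene of alternatively activated macrophages, was at 15.7, 108 and 44.2 CPM against 4.49, 13.7 and 8.37 CPM (-2.66, SE 0.73, adjusted p = 0.029), and it was no longer called without any 1 of 5 tumors, all but Pan02 tumor 1 (adjusted p from 0.052 to 0.084).

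*Arg1*, the arginase of M2 macrophages, was at 63, 286 and 1289 CPM in Pan02 and 219, 194 and 121 CPM in LL2 tumors. The Pan02 tumors reached from below to far above the LL2 tumors, and *Arg1* did not pass (-1.62, SE 0.93, adjusted p = 0.218) except without Pan02 tumor 1 (-2.09, adjusted p = 0.036). The single M2-list gene higher in LL2 was *Myc*, a general growth regulator that is not restricted to macrophages, at 750.4, 1024 and 676 CPM against 202, 138 and 135 CPM (2.36, SE 0.25, adjusted p = 0.000805).

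The M1 list was less one-sided, with 2 of 17 genes higher in LL2, 1 in Pan02 and a median of -0.15. Over all genes 7.3% were higher in LL2 and 14.1% in Pan02, so these few calls do not set the list apart. The LL2 count was 0 without Pan02 tumor 2 and 1 without LL2 tumor 2, LL2 tumor 3 or Pan02 tumor 3, and the Pan02 count 0 without LL2 tumor 1 or LL2 tumor 2 and 2 without LL2 tumor 3. The Pan02 gene was *Slc7a2*, described below. *Nos2*, which encodes inducible nitric oxide synthase, was at 107, 319.8 and 65.2 CPM in LL2 and 21.1, 29.1 and 38.2 CPM in Pan02 tumors, apart in all tumors (2.48, SE 0.60, adjusted p = 0.0183), with an adjusted p of 0.062 without Pan02 tumor 2 (2.47). *Fpr2*, a formyl peptide receptor gene, was at 5.05 against 0.976 CPM (2.36, adjusted p = 0.0212), and was lost without LL2 tumor 2, LL2 tumor 3, Pan02 tumor 2 or Pan02 tumor 3 (adjusted p = 0.075, 0.059, 0.055 and 0.058). The cytokine genes *Il1b* and *Tnf* overlapped, with *Il1b* at 21.2, 72.3 and 41.8 CPM in LL2 and 15.1, 85.3 and 16 CPM in Pan02 tumors and *Tnf* at 1.85, 2.49 and 3.12 CPM against 1.2, 3.63 and 2.33 CPM. *Il6* was at 0.749, 3.94 and 1.56 CPM against 0.54, 3.66 and 0.657 CPM.

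Single genes of arginine handling were called on both sides, at counts not far from the shares over all genes (7.3% in LL2 and 14.1% in Pan02). Besides *Nos2*, *Odc1*, which makes the polyamine putrescine from ornithine, was higher in LL2 at 406, 726 and 522 CPM against 121, 139 and 129 CPM (2.09, SE 0.23, adjusted p = 0.000985). *Slc7a2*, a cationic amino acid transporter gene, was higher in Pan02 at 12.8, 64.5 and 481 CPM against 4.1, 4.5 and 8.77 CPM (-5.00, SE 1.30, adjusted p = 0.0243), and was lost without LL2 tumor 1, LL2 tumor 2 or LL2 tumor 3 (adjusted p = 0.079, 0.094 and 0.057). In all, 2 of 16 genes of arginine and tryptophan metabolism were higher in LL2 and 3 in Pan02, with a median of -0.78, and 6 were higher in Pan02 without Pan02 tumor 1 or with all 15 tumors in the fit. The LL2 count was 1 without Pan02 tumor 2. *Ido2*, a tryptophan-degrading enzyme gene, was among the 3, at 5.8 against 0.648 CPM (-3.13, adjusted p = 0.0062).

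A synthase of prostaglandin E2 and its receptors were called on opposite sides. *Ptges*, which encodes the inducible terminal synthase of prostaglandin E2, was at 398, 719.7 and 424 CPM in LL2 and 38.6, 41.5 and 35 CPM in Pan02 tumors, apart in all tumors (3.74, SE 0.28, adjusted p = 0.00026), a 13.4-fold difference. The cyclooxygenase genes upstream of it did not pass. *Ptgs1* was at 188, 162 and 152 CPM against 86.2, 130.5 and 190.2 CPM and *Ptgs2* at 134, 224 and 76.1 CPM against 25.2, 169 and 23.8 CPM, the latter with Pan02 tumor 2 inside the LL2 range and a call without that tumor (2.56, adjusted p = 0.015). The receptor genes *Ptger3* (25.1 against 0.945 CPM, -4.72, adjusted p = 0.00278) and *Ptger4* (33.4 against 6.82 CPM, -2.29, adjusted p = 0.0135) were higher in Pan02, the latter not without LL2 tumor 2 (-2.12, adjusted p = 0.06). Of 22 genes on the list, 2 were higher in LL2 and 5 in Pan02, with a median of -0.75. The Pan02 count was 8 without Pan02 tumor 1, 1 without LL2 tumor 2 and 3 without LL2 tumor 1 or Pan02 tumor 2.

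Genes of class II antigen presentation had negative log2 fold changes throughout, and LL2 tumor 3 approached or entered the Pan02 range. *H2-Ab1*, a chain of the class II molecule, was at 109, 294 and 996 CPM in LL2 and 744, 2400.3 and 1982 CPM in Pan02 tumors and did not pass (-1.87, SE 0.81, adjusted p = 0.115). *Cd74*, the invariant chain, was at 206, 549 and 1738 CPM against 1616, 4941 and 4637 CPM (-2.17, SE 0.80, adjusted p = 0.0737), and the master regulator *Ciita* at 4.17, 8.44 and 38.5 CPM against 30.4, 98.3 and 29.9 CPM. Without LL2 tumor 3 all of these passed, at -3.07, -3.29 and -3.05 (adjusted p = 0.023, 0.019 and 0.026), and with all 15 tumors in the fit *H2-Ab1* (-1.79, 0.038) and *Cd74* (-2.08, 0.017) did. T cell markers moved with that tumor, and their summed level was 33.0, 45.1 and 135.6 CPM in the LL2 and 64.7, 283.1 and 148.4 CPM in the Pan02 tumors. The part of T cells in these values was not tested. Class II genes also differed in FAP+ cells sorted as fibroblasts from CD45- cells, described below with their epithelial markers. There they summed to 1250 and 593 RPKM in the Pan02 and 52.7 and 54.5 RPKM in the LL2 libraries. The tumor values thus cannot be assigned to myeloid cells alone, and the part of CD45- cells was not tested.

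Of 13 class II genes, 4 were higher in Pan02, with a median of -1.87 and a negative log2 fold change for each of the 13. The peptide-loading genes *H2-DMa* (-2.12, adjusted p = 0.0493), *H2-DMb1* (-1.84, 0.0469) and *H2-DMb2* (-2.81, 0.0187) were among the 4. These calls lay close to the threshold, and the count was 9 without LL2 tumor 3, 1 without Pan02 tumor 3 and 0 without LL2 tumor 1, LL2 tumor 2 or Pan02 tumor 2. It was 9 with all 15 tumors in the fit and 2 under total-count scaling. *H2-DMa* was lost under total-count scaling (-1.97, adjusted p = 0.059), under DESeq2 size factors (-2.08, 0.051), with doubled counts (-2.11, 0.052) and without any of 4 tumors (0.091 to 0.16), and *H2-DMb1* under total-count scaling (-1.69, 0.058) and without any of 5 tumors (0.054 to 0.15). *H2-DMb2* was lost without LL2 tumor 1, LL2 tumor 2 or Pan02 tumor 2 (0.063, 0.074 and 0.051). Similar sequences within this gene family could have split reads. *Itgax*, the gene of the dendritic cell integrin CD11c, was at 44.6, 63.7 and 125 CPM in Pan02 and 9.37, 11.1 and 32 CPM in LL2 tumors (-2.15, SE 0.58, adjusted p = 0.0271), and was lost without LL2 tumor 1, LL2 tumor 2, Pan02 tumor 2 or Pan02 tumor 3 (adjusted p = 0.075, 0.097, 0.053 and 0.079). Of 22 dendritic cell genes, 5 were higher in Pan02 and 1, the actin bundler gene *Fscn1*, in LL2 (564 against 197 CPM, 1.52). The Pan02 count was 12 by DESeq2 and with all 15 tumors in the fit, 11 without Pan02 tumor 1, 1 without LL2 tumor 2, 2 without LL2 tumor 1 or Pan02 tumor 2 and 3 without Pan02 tumor 3.

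Of 19 complement genes 8 were higher in Pan02, with a median of -1.04, and 4 were without LL2 tumor 2. *C3*, the central component, was at 686, 3435 and 2914 CPM in Pan02 and 100.3, 122 and 304 CPM in LL2 tumors (-3.74, SE 0.72, adjusted p = 0.00808). *Serping1*, the gene of the C1 inhibitor, averaged 307 against 58.2 CPM and was also higher in Pan02 (-2.40). Of 24 interferon response genes tested, 0 were called in either direction, and their median log2 fold change was -0.25. In Pan02, 9 were called higher once LL2 tumor 3 was left out and 2 with all 15 tumors in the fit.

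**Figure D3:**
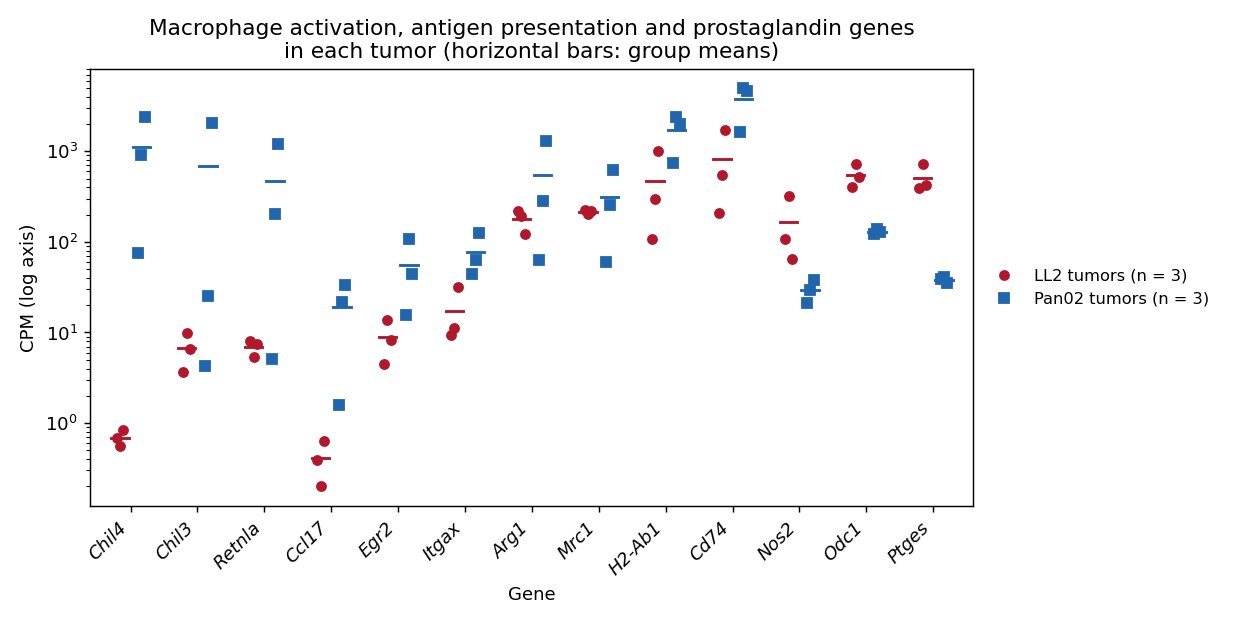
CPM of 13 genes of macrophage activation, antigen presentation and prostaglandin synthesis in each LL2 tumor (red circles) and Pan02 tumor (blue squares) on a log axis, with bars at the group means (n = 3). Pan02 tumor 1, the leftmost square of each gene, is the lowest of its group for *Chil4*, *Chil3*, *Retnla*, *Ccl17* and *Arg1*, and *Nos2*, *Odc1* and *Ptges* are apart with LL2 on top.

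Among mast cell and eosinophil genes, those of the mucosal mast cell proteases *Mcpt1* and *Mcpt2* were at 13.4, 15.8 and 244 and 75.8, 61.7 and 177 CPM in Pan02 tumors and at most 0.144 and 1.56 CPM in any LL2 tumor (-9.80 and -6.83, adjusted p = 0.00672 and 0.000874). Pan02 tumor 3 was the highest for both. The 2 genes are close relatives, so reads could have been split between them, and *Mcpt1* had 1, 1 and 2.5 counts in the LL2 tumors, so that its fold change depends on the prior count. *Siglecf*, a lectin gene of eosinophils, averaged 6.11 against 0.414 CPM (-3.79, adjusted p = 0.00509). *Gata2*, a transcription factor gene of mast cells and other cell types, was higher in LL2 (94.9 against 17.8 CPM, 2.41). Of 13 genes, 4 were higher in Pan02 and 1 in LL2, and 7 were higher in Pan02 without Pan02 tumor 1 or with all 15 tumors in the fit and 8 by DESeq2.

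Genes on most stromal lists leaned to Pan02, beginning with collagen I. The part of cancer cells in these whole-tumor values was not tested. *Col1a1*, at mm10 chr11:94936224-94953042, was at 25472, 25261 and 20221 CPM in Pan02 and 2836, 1363 and 1013 CPM in LL2 tumors (-3.77, SE 0.44, adjusted p = 0.00115), a 13.6-fold difference with every tumor apart. Its partner chain *Col1a2* was at 10911, 11428 and 11020.4 CPM against 1106, 625 and 434 CPM (-3.94, SE 0.38, adjusted p = 0.000632). *Col3a1* was instead at 6656, 10815 and 10224 CPM against 7787, 2928 and 5551 CPM, overlapped between the models and did not pass (-0.77, SE 0.38, adjusted p = 0.164). Per transcript length, *Col3a1* was thus above *Col1a1* in LL2 tumors (984 against 296 RPKM) and below it in Pan02 tumors (1675 against 4024 RPKM).

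Of 11 fibrillar collagen genes, 7 were higher in Pan02 and 1 in LL2, with a median of -2.32. The LL2 gene was *Col2a1*, the cartilage collagen, at 3.97, 19.1 and 9.84 CPM against 0.235, 0.0672 and 0.0896 CPM (6.15, SE 0.78, adjusted p = 0.00162), the latter under 6 counts a tumor. Among other collagens 11 of 16 were higher in Pan02, with a median of -2.46. They included *Col8a2* (46.4 against 0.588 CPM, -6.24), *Col28a1* (56 against 0.754 CPM, -6.22) and *Col6a5* (46.7 against 0.557 CPM, -6.39), the last of which was lost without LL2 tumor 1, LL2 tumor 2 or LL2 tumor 3 (adjusted p = 0.054, 0.083 and 0.064).

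Basement membrane genes were called on both sides. Of 20, 2 were higher in LL2 and 5 in Pan02, with a median of -0.40, and 3 were higher in Pan02 without LL2 tumor 2, LL2 tumor 3, Pan02 tumor 2 or Pan02 tumor 3. *Nid1*, the gene of the linker nidogen, was at 1207, 672 and 1019.6 CPM in LL2 and 314, 268 and 302 CPM in Pan02 tumors (1.71, SE 0.24, adjusted p = 0.00231). The laminin chain gene *Lamb1* was at 1024, 500.3 and 782 CPM against 342, 229 and 276 CPM (1.45, SE 0.29, adjusted p = 0.00964), whereas *Lamb2* was at 77.8, 54.7 and 76.9 CPM against 159, 266 and 198 CPM (-1.57, SE 0.24, adjusted p = 0.00313) and *Lama4* was also higher in Pan02 (-1.66, adjusted p = 0.00429). *Col4a1*, the main network collagen, was at 911, 513 and 742 CPM against 886, 661 and 484 CPM and overlapped (0.09).

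Of 34 matrix glycoprotein genes 22 were higher in Pan02, with a median of -1.91. *Postn*, the gene of periostin, was at 1685, 1762 and 1941 CPM in Pan02 and 69.4, 56.2 and 63.5 CPM in LL2 tumors, with little spread in either model (-4.83, SE 0.18, adjusted p = 8.19e-05). *Fn1*, the gene of fibronectin, was at 7598, 7245 and 9111 CPM against 3227, 1123 and 2235 CPM (-1.86, SE 0.38, adjusted p = 0.0104). *Ctgf*, a target of TGF-beta and YAP signalling, was at 284, 466 and 165 CPM against 16.9, 5.96 and 10.2 CPM (-4.79, SE 0.54, adjusted p = 0.00105), and *Fbn2*, a fibrillin gene, averaged 46.7 against 0.908 CPM (-5.63).

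Proteoglycans split, with 8 of 20 higher in Pan02, 2 in LL2 and a median of -1.28. *Fmod*, *Hapln1* and *Prelp*, which bind or organise collagen and hyaluronan, were higher in Pan02 at 28.5, 12.2 and 369 CPM against 0.486, 0.0986 and 23.9 CPM in LL2. The LL2 genes were *Vcan*, named above, and *Sdc2*, a syndecan gene (189 against 38.4 CPM, 2.30).

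Genes of enzymes that process and cut the matrix were called on both sides. *Lox*, which cross-links collagen, was at 446, 422 and 557 CPM in Pan02 and 77.4, 92.3 and 40.2 CPM in LL2 tumors (-2.76, SE 0.32, adjusted p = 0.00118), and *Loxl1* and *Loxl2* were higher as well (-2.73 and -2.69). The collagen processing list held 8 of 25 higher in Pan02 and 2 in LL2, the lysyl hydroxylase gene *Plod2* (279 against 87.1 CPM, 1.68) and the propeptidase gene *Adamts14* (178 against 34.1 CPM, 2.38), with a median of -0.20. Among matrix proteases 17 of 30 were higher in Pan02 and 1 in LL2, with a median of -1.60.

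*Mmp13*, an interstitial collagenase gene, was at 229, 131 and 131 CPM in Pan02 and 9.05, 5.15 and 8.51 CPM in LL2 tumors (-4.43, SE 0.34, adjusted p = 0.000284). The metalloproteases of inflammatory cells overlapped instead, with *Mmp9* at 52.4, 134 and 38 CPM in LL2 and 73.1, 38.5 and 52.4 CPM in Pan02 tumors and *Mmp12* at 100.5, 21.9 and 24.8 CPM against 38.1, 29 and 281 CPM. *Mmp3* was at 376, 68.5 and 74.9 CPM against 62.5, 143 and 203 CPM. *Plau*, the gene of urokinase, was the LL2 gene (318 against 120.4 CPM, 1.40), and was lost without LL2 tumor 1, LL2 tumor 2, LL2 tumor 3 or Pan02 tumor 2 (adjusted p = 0.076, 0.069, 0.054 and 0.086).

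**Figure D4:**
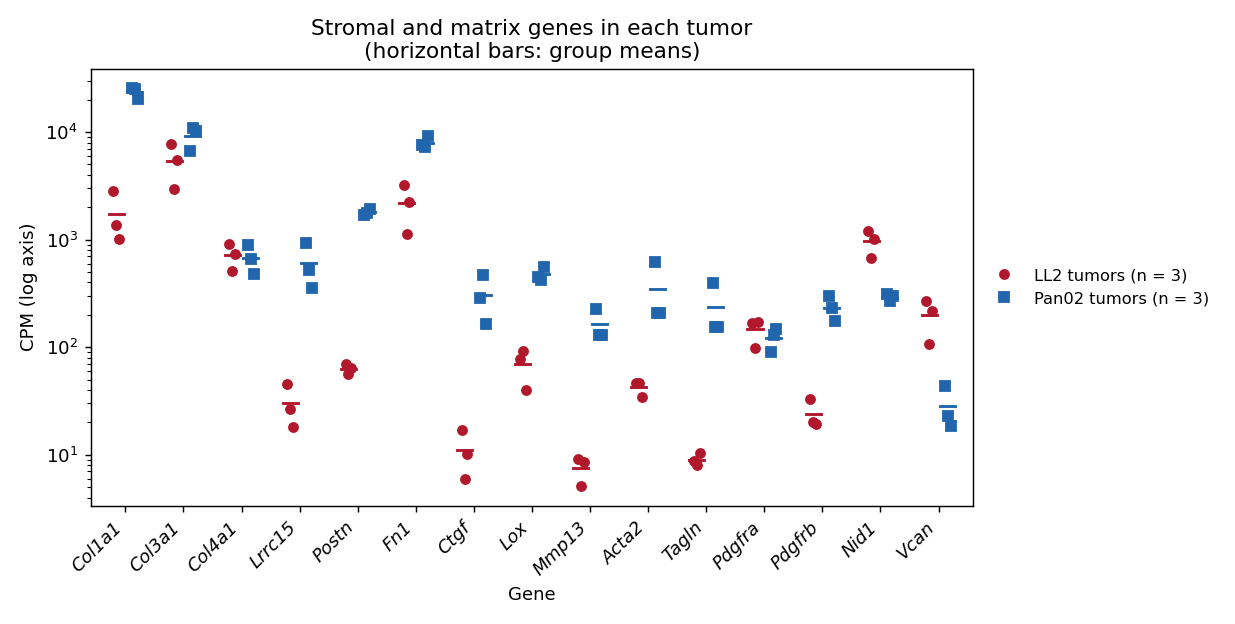
CPM of 15 stromal and matrix genes in each LL2 tumor (red circles) and Pan02 tumor (blue squares) on a log axis, with bars at the group means (n = 3). *Col1a1*, *Lrrc15*, *Postn*, *Fn1*, *Ctgf*, *Lox*, *Mmp13*, *Acta2*, *Tagln* and *Pdgfrb* are apart with Pan02 on top, *Nid1* and *Vcan* with LL2 on top, and *Col3a1*, *Col4a1* and *Pdgfra* overlap.

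Contractile genes of myofibroblasts and mural cells leaned to Pan02. *Acta2*, the gene of alpha-smooth muscle actin, was at 626, 206 and 207 CPM in Pan02 and 46.8, 46.3 and 34.3 CPM in LL2 tumors (-3.03, SE 0.48, adjusted p = 0.00395). *Tagln*, the gene of SM22, was at 399.7, 153 and 156 CPM against 8.72, 7.99 and 10.4 CPM (-4.71, SE 0.45, adjusted p = 0.000605), and 60.9% of its exon bases are shared with another gene. Of 18 contractile genes 10 were higher in Pan02, with a median of -2.03, among them *Actg2* (-4.74) and the collagen-binding integrin gene *Itga11* (61.8 against 2.5 CPM, -4.61). The *Actg2* call was lost without LL2 tumor 1, LL2 tumor 2 or LL2 tumor 3 (adjusted p = 0.05, 0.072 and 0.053).

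Of the PDGF receptor genes, which mark fibroblasts and mural cells, *Pdgfrb* was called and *Pdgfra* was not. *Pdgfra* was at 169, 99.2 and 173 CPM in LL2 and 89.6, 129 and 147 CPM in Pan02 tumors and overlapped (0.27, SE 0.27, adjusted p = 0.464). *Pdgfrb* was at 32.7, 20.2 and 19.3 CPM against 297, 229.5 and 175 CPM, with every tumor apart (-3.28, SE 0.30, adjusted p = 0.000472). Of 15 pericyte and smooth muscle genes 8 were higher in Pan02, including *Notch3* (283 against 14.8 CPM, -4.26) and, less firmly, *Rgs5* at 43.7, 62 and 66.9 CPM against 38.8, 17.7 and 14.9 CPM (-1.27, SE 0.38, adjusted p = 0.0388). The *Rgs5* call was lost without LL2 tumor 2, LL2 tumor 3, Pan02 tumor 2 or Pan02 tumor 3 (adjusted p = 0.13, 0.093, 0.1 and 0.1). Of 22 endothelial genes 4 were higher in Pan02 (7 without LL2 tumor 1, 2 without LL2 tumor 3 or Pan02 tumor 2) and 1 in LL2, and *Pecam1*, a general marker, overlapped at 62.3, 34.3 and 44 CPM against 59.2, 71.5 and 81.1 CPM.

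Among 25 fibroblast markers, 11 were higher in Pan02 and 3 in LL2, with a median of -1.06. *Fap*, the fibroblast activation protein gene, was at 5.33, 14.2 and 12.9 CPM in Pan02 and 2.86, 2.74 and 2.39 CPM in LL2 tumors (-2.01, SE 0.40, adjusted p = 0.00933). *Lrrc15*, a marker of TGF-beta-driven fibroblasts, averaged 603 against 30.3 CPM (-4.31, SE 0.50, adjusted p = 0.00113). The LL2 markers were the mesenchymal transcription factor genes *Prrx1* (254 against 87.5 CPM, 1.54) and *Twist1* (119 against 54.1 CPM, 1.14) and *S100a4* (578 against 232 CPM, 1.32), whose exons overlap another gene over 60.6% of their length. None of these is specific to fibroblasts.

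Inflammatory fibroblast genes divided by member, with 3 of 24 higher in LL2 (5 without LL2 tumor 1 or with all 15 tumors in the fit), 4 in Pan02 and a median of 0.33. The LL2 genes were *Cxcl1*, *Ccl2* and the interleukin-1 receptor gene *Il1r1* (189 against 58.5 CPM, 1.70, SE 0.16, adjusted p = 0.000514). Its co-receptor *Il1rap* was also higher in LL2 (75.9 against 7.98 CPM, 3.24, SE 0.21, adjusted p = 0.000185). *C3* and *Igf1* (61.9 against 12 CPM, -2.37) were higher in Pan02, the latter with an adjusted p of 0.05 without LL2 tumor 2 (-2.25). *Cxcl12*, the CXCR4 ligand of many fibroblasts, was at 19.1, 66.1 and 35.8 CPM in LL2 and 18.1, 53 and 74.5 CPM in Pan02 tumors and overlapped.

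Of the TGF-beta ligand genes, *Tgfb2* was called higher in Pan02. *Tgfb1* was at 356, 286 and 310.4 CPM in Pan02 and 165, 176 and 184 CPM in LL2 tumors, apart in all tumors and under the fold threshold (-0.86, SE 0.14, adjusted p = 0.00426). *Tgfb2* was at 28.7, 20.9 and 16.7 CPM against 3.45, 2.81 and 1.73 CPM (-3.05, SE 0.34, adjusted p = 0.00101). Of 28 genes of the family 13 were higher in Pan02, with a median of -1.03, including the activin gene *Inhba* (119 against 12.2 CPM, -3.28) and the BMP ligand genes *Bmp4* (-6.58) and *Bmp7* (-4.69). The LL2 gene was *Tgfbr3*, the co-receptor betaglycan (286 against 57 CPM, 2.33, SE 0.23, adjusted p = 0.000638).

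Wnt genes had the highest share of calls among the stromal lists, with 17 of 23 higher in Pan02 and a median of -3.95. The ligand gene *Wnt10a* was at 126, 214 and 148 CPM in Pan02 and 0.586, 1.66 and 0.981 CPM in LL2 tumors (-7.20, SE 0.41, adjusted p = 0.000149), and *Wnt6* averaged 41.2 against 0.62 CPM. *Notum*, a feedback inhibitor, averaged 156 against 2.35 CPM (-6.04) and overlaps another gene over 38.3% of its exons. The opposite call was *Dkk2*, a secreted modulator of Wnt receptors, at 501, 321 and 524 CPM in LL2 and 3.22, 5.98 and 6 CPM in Pan02 tumors (6.47, SE 0.36, adjusted p = 0.000147).

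Growth factor genes were called on both sides. *Igf2* was at 1585, 998 and 834 CPM in Pan02 and 3.48, 1.78 and 8.65 CPM in LL2 tumors (-7.93, SE 0.70, adjusted p = 0.000443), with 70.4% of its exon bases shared with another gene. *Igfbp4*, which binds insulin-like growth factors, was at 3908, 3028 and 3916 CPM in LL2 and 151, 422 and 277 CPM in Pan02 tumors (3.68, SE 0.40, adjusted p = 0.000917). *Areg*, an EGF receptor ligand gene, was higher in LL2 (66.1 against 8.16 CPM, 3.01), as was *Fgf10* (6.33 against 0.507 CPM, 3.66). Of 38 growth factor and receptor genes, 5 were higher in LL2 (9 without Pan02 tumor 1, and 8 by DESeq2, under DESeq2 size factors, under total-count scaling or with all 15 tumors in the fit) and 13 in Pan02, with a median of -0.78, and of 21 integrin genes 1 and 9, with a median of -0.85.

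The stromal calls were then set beside FAP+ cancer-associated fibroblasts (CAFs), which the study sorted from the CD45- cells of LL2 and Pan02 tumors, 2 libraries each. These are RPKM values of a separate table with its own normalization, so they are compared within that table only and without a test. Of 22 stromal genes higher in LL2 tumors, 21 were measured in CAFs, and 19 had both LL2 libraries above both Pan02 libraries, an order that 34.7% of 12001 genes showed. Of 147 stromal genes higher in Pan02 tumors, 134 were measured, of which 56 had the same order in CAFs, 48 the opposite order and 30 overlapped. Over all genes, 39.9% had both Pan02 CAF libraries on top. These shares cover genes called in tumors or not, and the share among all called genes was not taken. The counts therefore do not show that keeping the order is particular to stromal genes.

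Genes with the same order included *Cxcl1*, *Ccl2*, *Dkk2* and *Wnt10a*. *Cxcl1* was at 260.4 and 131 RPKM in LL2 CAFs and 29.9 and 25.4 RPKM in Pan02 CAFs, *Ccl2* at 319 and 277 against 18.9 and 8.06 RPKM and *Dkk2* at 133 and 156 against 1.03 and 0.771 RPKM. *Wnt10a* was at 65.3 and 79.8 RPKM in Pan02 CAFs and 0.475 and 0.571 RPKM in LL2 CAFs. Among genes of the opposite order was collagen I. *Col1a1* was at 2260.0 and 1595 RPKM in LL2 CAFs and 1535 and 795 RPKM in Pan02 CAFs, and *Postn* at 316 and 249 against 205 and 99.1 RPKM. *Fap*, the sorting marker itself, was at 9.24 and 9.91 RPKM in LL2 CAFs and 3.28 and 1.89 RPKM in Pan02 CAFs. *Pdgfrb* and *Acta2* kept the tumor order, at 68.7 and 50.7 and 119 and 89.1 RPKM in Pan02 CAFs against 27.7 and 24.8 and 43.6 and 40.0 RPKM in LL2 CAFs.

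Genes that distinguished the tumors outside the stroma were also found in the sorted cells. *Pdx1*, a pancreatic transcription factor gene, was at 34.2 and 35.3 RPKM in Pan02 CAFs and 0.258 and 0 RPKM in LL2 CAFs, and *Krt7*, an epithelial keratin gene, at 49.5 and 49.5 against 2.55 and 1.89 RPKM. *Hmga2*, a chromatin protein gene of embryonic and cancer cells, was at 57.2 and 71.6 RPKM in LL2 CAFs and 0.033 and 0.068 RPKM in Pan02 CAFs. Summed epithelial markers were at 956 and 1230 RPKM in Pan02 and 225 and 227 RPKM in LL2 CAFs, and summed fibroblast markers at 5690 and 3610 against 10500 and 9370 RPKM. The leukocyte gene *Ptprc* was at most 0.095 RPKM in any of the 4 libraries. Summed sex-linked genes, among them *Xist*, which female cells transcribe, were at 0.944 and 0.671 RPKM in Pan02 and 12.5 and 16.9 RPKM in LL2 CAFs, although the host mice were female. The part of cancer cell RNA in the CAF values was not tested. Neither the same orders nor the opposite orders above can therefore be read as a difference between fibroblasts alone.

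**Figure D5:**
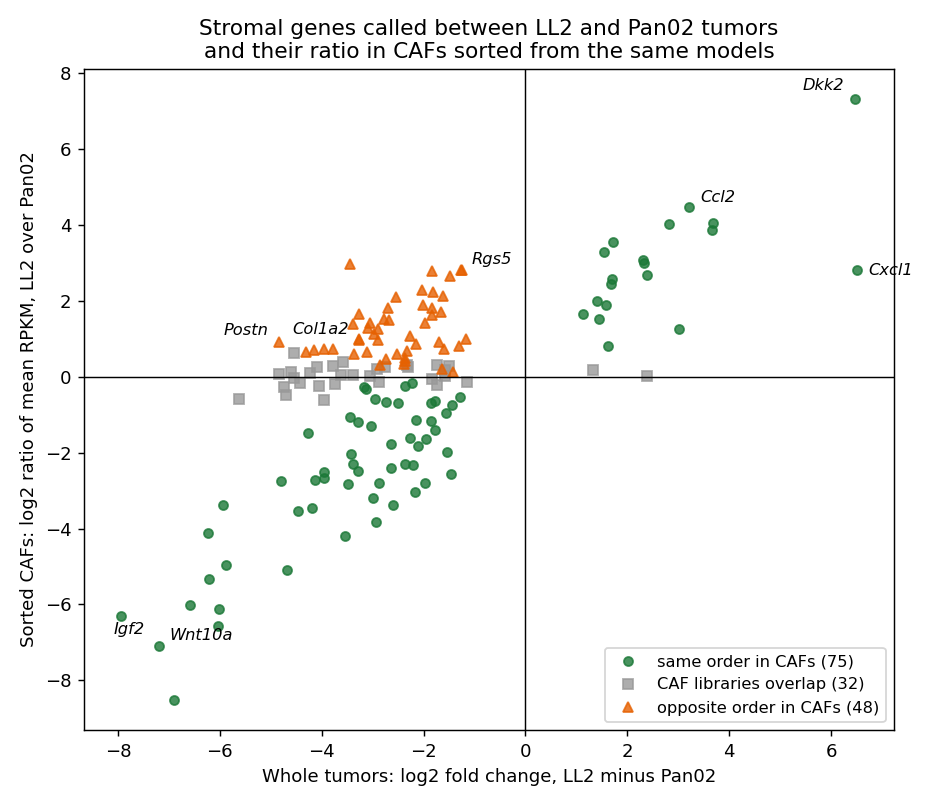
For 155 stromal genes called between the tumors and measured in CAFs, the log2 fold change in whole tumors (x axis, LL2 minus Pan02) against the log2 ratio of mean RPKM in sorted CAFs (y axis, LL2 over Pan02, with 0.01 RPKM added). Green circles (75) have the same order in both, grey squares (32) overlap in CAFs, and orange triangles (48), among them *Col1a2*, *Postn* and *Rgs5*, lie left of 0 and above 0, so they were higher in Pan02 tumors and in LL2 CAFs.

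Over all genes, the calls with the largest fold changes held many lineage genes, and where the lower group had few counts the fitted value depends on the prior count. In Pan02 tumors these were, beside *Chil4* and *Mcpt1*, *Slurp1* (-9.63), the epithelial transcription factor gene *Ehf* (-9.14), *Pdx1* (-8.70), the claudin gene *Cldn2* (-8.62), *Ppp1r1b* (-8.62) and *Pax2* (-8.61). *Pdx1* was at 56.1, 45 and 26.1 CPM in Pan02 and 0.0325, 0.101 and 0.115 CPM in LL2 tumors. In LL2 tumors they were the homeobox genes *Rhox2g* (11.66), *Rhox2h* (8.87) and *Rhox2d* (8.24), whose family is alike enough to split reads, with *Gpr149* (8.43), *Hmga2* (7.84), *Dlx2* (7.43), *Chst5* (7.34) and *Nefl* (6.81), whose exons overlap another gene over 32.8% of their length. *Hmga2* was at 461, 558 and 357 CPM in LL2 and 1.67, 1.31 and 2.9 CPM in Pan02 tumors.

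Of 20 epithelial genes 11 were higher in Pan02, with a median of -1.73. *Krt19* was at 272, 488 and 276 CPM in Pan02 and 11.4, 18.5 and 7.3 CPM in LL2 tumors (-4.79, SE 0.44, adjusted p = 0.000496), *Cdh1*, the gene of E-cadherin, averaged 174 against 4.05 CPM (-5.42), and *Krt7* 157 against 0.391 CPM (-8.54). Of the 8 lung epithelial markers 2 were abundant enough to test, and *Napsa* was higher in Pan02 (-1.81), not in the tumors of the lung line, with 16.7% of its exon bases shared with another gene. The *Napsa* call was lost without LL2 tumor 1, LL2 tumor 2, Pan02 tumor 2 or Pan02 tumor 3 (adjusted p = 0.077, 0.11, 0.094 and 0.074). *Xist*, transcribed from the inactive X chromosome of female cells, was at 285, 204 and 234 CPM in LL2 and 69.9, 102 and 109.7 CPM in Pan02 tumors (1.36, SE 0.22, adjusted p = 0.00393).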

How the data were processed

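Gene expression was measured by poly(A) RNA sequencing, with a library kit that does not keep strand, in whole tumors (3 LL2, 3 Pan02) and in sorted CAFs (2 and 2). The authors aligned reads to mm10 with STAR 2.5.0c and counted them per transcript with HOMER. The deposited tumor table holds estimated counts per transcript, some of them not whole, which were rounded, and the deposited CAF table holds RPKM values made by the authors. Of 40458 transcripts, 2 name no gene and were left out, and the transcript with the highest mean count over the 6 tumors stood for each of 24940 symbols. 5 columns of per-sample values that match no sample were not used.

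Genes were filtered with filterByExpr, scaled by TMM and tested with edgeR 4.0.16 (quasi-likelihood) in R 4.3.3 over the 6 tumors, with Benjamini-Hochberg adjustment over 14718 genes. Alternatives were DESeq2 1.42.0, other scalings, no filter, all 15 tumors in the fit, another transcript choice, doubled counts, a replicate block and each tumor left out. Tested on simulated counts for 14828 genes of this comparison, the script called 100 of 100 genes changed 8-fold and 20 of 100 changed 2-fold in the right direction, with 4 unchanged genes called. The simulation gave every gene the same dispersion of 0.1 and changed only genes with at least 20 expected counts. It therefore does not cover genes with few counts or a wide spread between tumors. A floor of 3 counts corresponded to 0.141 to 0.202 CPM, and such limits cover counting error only. Named genes were 73 key genes, up to 3 called genes per list and direction with at least 5 CPM, and the 8 largest changes in each direction with at least 20 CPM, the last 2 kinds with groups that do not overlap. The members and the 49 lists were chosen with earlier results of these data known. Columns of gene position and transcript length were copied from the files. Figures were drawn with matplotlib 3.10.9.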

Additional observations from a re-analysis of the deposited data

Results flagged for a closer look

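Genes named above that were higher in Pan02 tumors but had both LL2 libraries on top in sorted CAFs went opposite ways in the 2 kinds of sample, and this difference was not tested. The log2 ratio of mean RPKM in LL2 CAFs over Pan02 CAFs was 0.73 for *Col1a1*, 0.74 for *Col1a2*, 0.90 for *Postn*, 1.89 for *Fap* and 0.65 for *Lrrc15*. It was 0.46 for *Loxl1* and 1.81 for *Loxl2*, the collagen cross-linking enzyme genes, 1.81 for *Lama2* and 1.70 for *Lama4*, which are laminin chain genes, 0.41 for the growth factor gene *Igf1* and 2.81 for the pericyte gene *Rgs5*. Each rests on 2 CAF libraries per model. Epithelial markers summed to more, and fibroblast markers and sex-linked genes to less, in the Pan02 than in the LL2 CAF libraries. The part of these differences in the ratios was not tested.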

How the results depend on the processing

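With each tumor left out in turn, 840 to 1361 genes were higher in LL2 and 1537 to 2234 in Pan02. With no threshold on the fold change, 2376 genes were higher in LL2. Medians of the gene lists moved as follows, and the cause was not tested. The epithelial median was -0.68 (DESeq2 test), -0.71 (no filter on low counts) and -1.20 (all 15 tumors in the fit), and the collagen processing median -0.07 (total-count scaling). The matrix glycoprotein median was -1.78 (total-count scaling), the proteoglycan median -1.59 (DESeq2 test), -1.63 (no filter on low counts), -1.58 (all 15 tumors in the fit) and -1.13 (replicate block), the growth factor median -0.64 (total-count scaling) and -0.59 (replicate block) and the Wnt median -3.12 (DESeq2 test), -3.15 (no filter on low counts), -3.39 (all 15 tumors in the fit) and -3.69 (doubled counts). With 1 tumor left out, medians ranged from -3.02 to -1.44 (MHC class II), from -2.42 to -0.62 (T cell), from -1.22 to -0.90 (TGF-beta and activin), from -3.75 to -3.16 (Wnt pathway), from -1.18 to 0.74 (adipocyte), from -1.01 to -0.35 (arginine and tryptophan metabolism), from -0.70 to -0.29 (basement membrane), from 0.94 to 1.29 (cell cycle), from -0.23 to -0.05 (collagen processing), from -1.08 to -0.53 (endothelial), from -2.65 to -1.45 (epithelial), from -2.64 to -2.05 (fibrillar collagen), from -0.91 to -0.60 (growth factor and receptor), from -0.40 to 0.33 (inflammatory cytokine), from -1.47 to -0.33 (integrin), from -2.66 to -1.36 (mast cell and eosinophil), from -2.25 to -1.80 (matrix glycoprotein), from -1.92 to -1.46 (matrix protease), from -1.46 to -0.05 (monocyte), from -1.81 to -1.02 (pericyte and smooth muscle) and from -1.46 to -0.87 (proteoglycan). Among genes that were not called, the log2 fold change changed sign for *Csf3r* under DESeq2 size factors (0.01), total-count scaling (0.11), the DESeq2 test (0.02) and all 15 tumors in the fit (0.03), and for *Mmp3* with the replicate block (-0.13). It also changed sign with 1 tumor left out, ranging from -0.53 to 0.09 for *Adgre1*, from -2.09 to 0.09 for *Arg1*, from -0.06 to 0.72 for *Ccr2*, from -0.10 to 0.40 for *Col4a1*, from -0.21 to 0.25 for *Csf3r*, from -0.81 to 0.25 for *Cxcl12*, from -0.86 to 1.10 for *Cxcl3*, from -0.93 to 0.06 for *Cxcl5*, from -0.00 to 0.80 for *Cxcr2*, from -0.29 to 1.53 for *Il1b*, from -0.46 to 1.79 for *Il6*, from -2.31 to 0.59 for *Mmp12*, from -0.92 to 0.81 for *Mmp3*, from -0.27 to 0.77 for *Mmp9*, from -0.95 to 0.52 for *Mrc1*, from -0.87 to 0.10 for *Ptprc* and from -0.18 to 0.50 for *Tnf*. The LL2 and Pan02 tumors share replicate numbers only, with correlations of same-numbered deviations of 0.107, -0.155 and -0.0503. A block on the number gave 1040 genes higher in LL2 and 1988 in Pan02. Of the genes named, *Retnla* (-4.57, adjusted p = 0.13 by edgeR), *Rgs5* (-1.39, 0.055), *Col6a5* (-5.39, 0.069) and *Cx3cl1* (-1.12, 0.07) were not called with it, and *C1qa*, *Cd74*, *Clec7a*, *Cxcl2*, *H2-Ab1*, *Pdcd1lg2*, *Ptgs2* and *S100a8* were. Precision is limited by 3 tumors per model.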

Other observations

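Cell cycle genes leaned to LL2, with 11 of 18 called higher there and a median log2 fold change of 1.03. *Bub1*, a spindle checkpoint kinase gene, averaged 56.7 CPM in LL2 and 15.3 CPM in Pan02 tumors (1.89, SE 0.27, adjusted p = 0.00268 by edgeR). The replication licensing gene *Mcm3* averaged 212 against 80.8 CPM (1.39) and the cyclin gene *Ccne1* 22.4 against 9.09 CPM (1.30). Of 20 hypoxia and glycolysis genes 2 were higher in LL2, among them *Adm*, the gene of adrenomedullin (171 against 31 CPM, 2.46), a count that was 4 without Pan02 tumor 1 and 1 without LL2 tumor 1, LL2 tumor 2, Pan02 tumor 2 or Pan02 tumor 3.

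Of 5 B and plasma cell genes tested 4 were higher in Pan02 tumors, a count that was 8 without Pan02 tumor 1 and by DESeq2 (where more genes were tested) and 2 without LL2 tumor 1, LL2 tumor 2, LL2 tumor 3 or Pan02 tumor 2. Among the 4 was *Sdc1*, a syndecan gene (-2.1) with the same order in sorted CAFs (log2 ratio -1.84). The list summed to 446 and 382 RPKM in Pan02 and 113 and 122 RPKM in LL2 CAFs, so it does not read B and plasma cells alone. *Jchain*, which joins polymeric antibodies, was at 9.23, 197 and 167 CPM in Pan02 and 2.31, 0.101 and 1.56 CPM in LL2 tumors (-6.58, SE 1.35, adjusted p = 0.0103). Of the checkpoint list 3 of 16 were higher in Pan02 (5 without Pan02 tumor 1), not far from the 14.1% over all genes. Among the 3 was *Tnfsf18*, the ligand gene of GITR (5.45 against 0.0961 CPM, -5.74). *Cd274*, the gene of PD-L1, was at 17, 73 and 42.5 CPM in Pan02 and 12.8, 25.6 and 41.7 CPM in LL2 tumors and was not called (-0.72, adjusted p = 0.371). Summed skeletal muscle markers varied widely within both models, at 14.7, 1258 and 1323 CPM in LL2 and 1183, 275 and 70.2 CPM in Pan02 tumors.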
